A study of Mus musculus with 2 samples.

Results

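The cytosolic ribosomal protein genes encode the protein part of the ribosome. Their symbols were Rpl or Rps, a number, at most 1 of the letters a, x, l and y, and at most 1 digit. Rplp0, Rplp1, Rplp2 and Rpsa were added, and ribosomal kinases and symbols marked -ps were left out. Symbols with other endings, such as Rpl36al and Rps27rt, did not match. Of 84 such symbols among the 27998 genes counted, 81 had at least 100 unique molecular identifiers (UMIs, 1 per captured mRNA molecule) over both libraries and form the module described here, 32 of the small and 49 of the large subunit. The closest members inside and outside the minimum were Rpl6l, with 333 UMIs, and Rpl39l, with 58. Rpl6l matches by its symbol, although the annotation holds it as a processed pseudogene. Rpl3l had 5 UMIs and Rpl10l had 0, a count that allows up to 3 UMIs in each library.

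Single cells were taken from pooled fore- and hindlimb tendons of 2 mouse pups per library at 7 days after birth and sequenced on the 10x Genomics 3′ platform. The mutant pups carried a floxed Tgfbr2, the type II receptor of TGFβ, together with ScxCre, a Cre driven by the tendon transcription factor gene Scx (Tgfbr2;ScxCre). The control library was labelled wild type in its title and genotype and Het in its description, and pups of the study also carried the ScxGFP and Ai14 Rosa26-tdTomato reporters, so Scx counts can include reporter transcripts. The study describes ScxCre activity as uneven in embryos and the receptor protein as almost entirely gone from mutant tendons around birth. The 3′ counts of Tgfbr2 (44.97 CPM, UMIs scaled to a total of 1000000, in wild-type and 64.2 in mutant cells) do not test the deleted part of the gene. There was 1 library per genotype, so no test was run, no p-value is given, all intervals are 95% intervals for counting error only, and library preparation and genotype cannot be told apart.

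A ribosome joins a small subunit, which reads the mRNA, to a large subunit, which forms the peptide bond, and each subunit needs its proteins in matched numbers. Ribosomal protein mRNAs are among the most abundant in any cell, carry a pyrimidine tract at their 5′ end (the TOP motif) through which their translation follows growth signals, and have given rise to many processed pseudogenes in mammalian genomes. Near-identical copies matter for counting, because Cell Ranger, the counter used here, keeps only reads that map to 1 gene.

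The start regions of 8 members named repeatedly here are shown first, because they place the genes. They are a selection and do not show how common the marked words are among members. Those of Rpl10, Rps16, Rpl41 and Rpl36a, also named here, held none of these words and are not printed. Each runs from 50 bases before to 30 after the start site in RefSeq on GRCm38.p6, whose promoter table held 60 of the 81 members. Capitals mark the word CTCTT, the word CTTTC, the word CTTTT or the word CCTTT, any of which may overlap another, on the gene's own strand between 5 bases before and 11 bases from the start.
Rps6, chr4:86857338-86857417, minus strand: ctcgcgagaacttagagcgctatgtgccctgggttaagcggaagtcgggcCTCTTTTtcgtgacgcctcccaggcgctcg
Rpl35, chr2:39005102-39005181, minus strand: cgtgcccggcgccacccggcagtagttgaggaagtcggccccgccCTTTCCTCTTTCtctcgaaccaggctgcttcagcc
Rpl35a, chr16:33056432-33056511, plus strand: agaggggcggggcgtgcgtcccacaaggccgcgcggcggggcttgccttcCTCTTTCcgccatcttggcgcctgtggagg
Rpl15, chr14:18270957-18271036, minus strand: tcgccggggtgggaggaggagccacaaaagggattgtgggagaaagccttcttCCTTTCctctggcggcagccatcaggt
Rpl22l1, chr3:28805458-28805537, plus strand: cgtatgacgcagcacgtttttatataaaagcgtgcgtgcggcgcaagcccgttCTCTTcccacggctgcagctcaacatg
Rps3a1, chr3:86142639-86142718, minus strand: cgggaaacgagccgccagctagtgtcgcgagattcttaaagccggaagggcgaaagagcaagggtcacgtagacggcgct
Rpl39, chrX:37085193-37085272, minus strand: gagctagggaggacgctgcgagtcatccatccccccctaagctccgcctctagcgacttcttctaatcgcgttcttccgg
Rpl38, chr11:114668530-114668609, plus strand: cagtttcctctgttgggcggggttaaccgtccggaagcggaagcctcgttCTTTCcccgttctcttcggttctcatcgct

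Such a word stood at a start site of 19 of the 60 members (31.7%), against 6.37% of 27025 genes with a start region in the table. For this and the motifs below, a gene counted if any of its listed start sites held a match. Rpl35a had 3 listed, and the one printed was chosen because it holds a word. CCGGAAG, searched on both strands of the 300 bases from 250 before to 50 after the start, was in 41.7% of the members and 9.93% of all genes. AAGATGG was in 16.7% of the members and 7.28% of all genes, and TATAAA in 11.7% and 15.7%. Members that stood low in the mutant library (Rps6, Rpl35, Rpl35a and Rpl15) and Rpl22l1, which stood high, all held a word marked in capitals above. Rpl10 and Rps16, which also stood low, and Rps3a1 and Rpl39, which stood high, held none of those words at the listed start. Other runs of C and T, such as cctct at the start of Rpl39, were not searched for, so a member without a marked word can still hold a pyrimidine tract. Only bases near the start sites listed in RefSeq were searched. The GENCODE 5′ gene ends of Rps6, Rpl35, Rpl15, Rpl22l1, Rps16, Rps3a1 and Rpl39 lie elsewhere. Those of Rpl35, Rpl15, Rpl22l1 and Rpl39 lie outside the printed stretches. A word at another start would be missed, and a marked word need not stand at the start that the cells use. A match is a description of letters and not of a bound or regulated site.

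Cells were sorted into classes by markers that include no ribosomal protein gene. Scx-high cells had at least 30 Scx UMIs per 10000, and Scx-low fibroblasts fell below that and passed a threshold on fibroblast genes. Cycling cells had at least 5 UMIs on 20 proliferation genes and were taken out of both Scx classes, and immune cells were gated on 17 leukocyte genes. With Scx left out, since it set the gate, the other 6 tenocyte genes summed to 16773 CPM in wild-type and 11680 CPM in mutant Scx-high cells, against 2334 and 2935 CPM in Scx-low fibroblasts. The 17 immune genes summed to 22079 and 26144 CPM in immune cells, a contrast with the other classes that the gate itself fixes. Cd79a, a B cell marker, was at 0 in immune cells of both libraries, and Cd3e, a T cell marker, in those of the mutant library. Immune cells also held tenocyte transcripts, 2520 CPM in wild-type cells and 368 CPM in mutant cells, and their part in the immune results was not tested. The wild-type library held 2364 cells with a median of 3867 UMIs and the mutant library 2592 cells with a median of 2828. The libraries had 2 cell barcodes in common. Xist was at 1 and 0 UMIs, and Ddx3y at 368 and 337 UMIs.

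Ribosomal protein genes took a larger share of UMIs in the mutant library in Scx-high, Scx-low and cycling cells, and not in immune, mural or endothelial cells. In Scx-high cells the median share per cell was 14.6% in the wild-type (1080 cells) and 17.5% in the mutant library (182 cells), and the share of the summed UMIs was 14.95% (14.92 to 14.98) and 17.6% (17.5 to 17.7). Scx-low fibroblasts held the highest shares of the 4 classes, a median of 18.3% over 694 wild-type cells and 21.1% over 1748 mutant cells. They made up 29.4% of wild-type and 67.4% of mutant cells, and Scx-high cells 45.7% and 7.02%. The study describes most mutant tendon cells as having lost the ScxGFP signal and proposes that some still positive are newly recruited. An Scx class need not hold the same kind of cell in both libraries, and make-up and genotype cannot be told apart. Cycling cells had medians of 14.04% (132 cells) and 16.1% (144 cells). Immune cells went the other way, from 16.9% (193 cells) to 15.3% (190 cells).

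The module ratio, mutant over wild-type, was 1.18 in Scx-high cells (1.17 to 1.18), 1.18 in Scx-low fibroblasts (1.176 to 1.184) and 1.19 in cycling cells (1.17 to 1.196). In immune cells it was 0.959 (0.949 to 0.969). The immune value did not keep its direction in cells of 2500 to 5000 UMIs, where it was 1.01 (0.994 to 1.02), and median depth in immune cells was 2413 UMIs in wild-type cells and 1704 in mutant cells. Mural cells, gated on pericyte and smooth muscle genes (132 and 91 cells), had a module ratio of 0.932 (0.920 to 0.944), and endothelial cells (21 and 28 cells) had 0.995 (0.972 to 1.02). All of these ratios come from the same libraries and are not independent of each other.

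**Figure D1:**
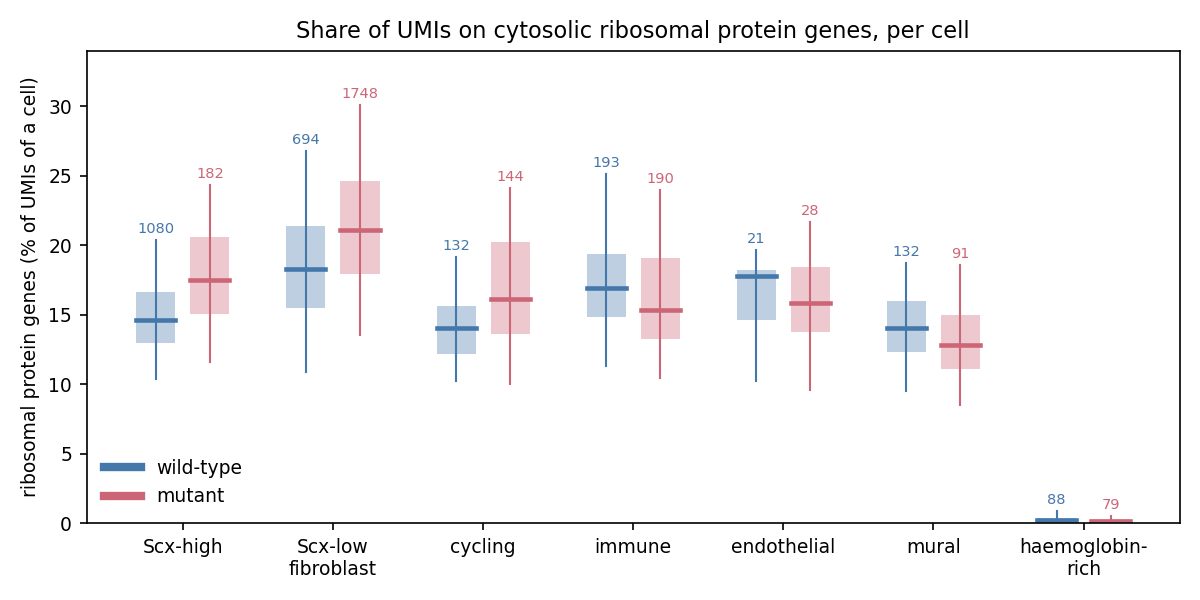
Share of each cell's UMIs on the 81 ribosomal protein genes (vertical axis, percent) by cell class for the wild-type (blue) and mutant (red) library. Thick lines are medians, boxes run from the 25th to the 75th and thin lines from the 5th to the 95th percentile of cells, and numbers count cells. The median is higher in the mutant library in the Scx-high, Scx-low and cycling classes, lower in the immune, endothelial and mural classes, and near 0 in haemoglobin-rich cells.

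Cells of 1 class and library were widely spread. The standard deviation between cells was 3.34 percentage points in wild-type and 4.53 in mutant Scx-high cells, whereas counting error alone would give 0.63 and 0.67 points. The 5th and 95th percentiles in Scx-high cells were 10.4% and 20.4% in the wild-type and 11.6% and 24.3% in the mutant library, and in Scx-low fibroblasts 10.9% and 26.8% and 13.6% and 30.1%, so in both classes the ranges of the libraries overlapped. Haemoglobin-rich cells had a median of 0.219% of UMIs on the module in wild-type and 0.165% in mutant cells, and with collagen genes, Scx and haemoglobin genes left out of the total the summed share there was 13.2% and 8.12%.

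How many different members a cell showed differed little. With every cell cut down at random to 1500 UMIs, the median number of members detected per cell was 67 in wild-type and 68 in mutant Scx-high cells, and 70 and 69 in Scx-low fibroblasts. Thinning left out 82 and 13 shallower Scx-high cells and 45 and 166 Scx-low fibroblasts. Before thinning, the medians were 76 and 75 in Scx-high cells and 76 and 74 in Scx-low fibroblasts.

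Both the size and the direction of the Scx-high difference depended on the total and scale used. Collagen genes took 13.4% of UMIs in wild-type and 4.94% in mutant Scx-high cells, and with collagen genes, Scx and haemoglobin genes left out of the total the module ratio there was 1.07 (1.07 to 1.08). With the 20 most abundant other genes left out it was 1.01 (1.01 to 1.02), and centred on the median ratio of all genes in the class it turned to 0.983. The Scx-low fibroblast value moved less, to 1.18 without collagen, Scx and haemoglobin genes, 1.16 without the 20 genes and 1.201 when centred, and collagen genes there took 3.58% and 3.29% of UMIs. The cycling ratio was 1.13, 1.09 and 1.10 in the same order. Cycling cells also differed in make-up, since 78 of 132 wild-type and 36 of 144 mutant cycling cells were Scx-high. Within cycling cells the share was 13.9% and 15.5% in those that were Scx-high and 15.3% and 17.9% in those that were Scx-low.

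Dissociation response genes, which cells switch on during enzymatic digestion, were 1.41 times as high in mutant as in wild-type Scx-low fibroblasts as a sum (1.38 to 1.44). Of the 18 measured, 10 were at least 1.5-fold higher and 1 lower, against 7.8% and 10.1% of all genes tested. In Scx-high cells the sum was 1.02 times as high (0.989 to 1.06), in cycling cells 1.12 (1.07 to 1.18) and in immune cells 1.12 (1.07 to 1.17). Their part in the ribosomal protein shares was not tested. In wild-type Scx-low fibroblasts the median share also varied with depth, from 19.8% in cells under 2000 UMIs to 14.9% in cells of 6000 or more, while in mutant Scx-low fibroblasts it lay between 18.5% and 21.4% over the same bins.

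Within each library, cells with more Scx had a smaller ribosomal protein share. In the wild-type library the median was 19.0% in 217 cells without Scx and 14.1% in 326 cells with 300 or more Scx UMIs per 10000, and in the mutant library it was 21.2% in 1371 cells and 14.9% in 49 cells. The Scx-high over Scx-low ratio of the module was 0.832 (0.829 to 0.835) in the wild-type and 0.829 (0.824 to 0.834) in the mutant library. Without collagen, Scx and haemoglobin genes in the total it was 0.955 (0.951 to 0.959) and 0.869 (0.864 to 0.874). In the wild-type library the direction did not hold under other scalings. The ratio was 1.004 (1 to 1.008) without the 20 most abundant other genes and 1.12 when centred on the median of all genes, while the mutant values were 0.876 and 0.892.

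**Figure D2:**
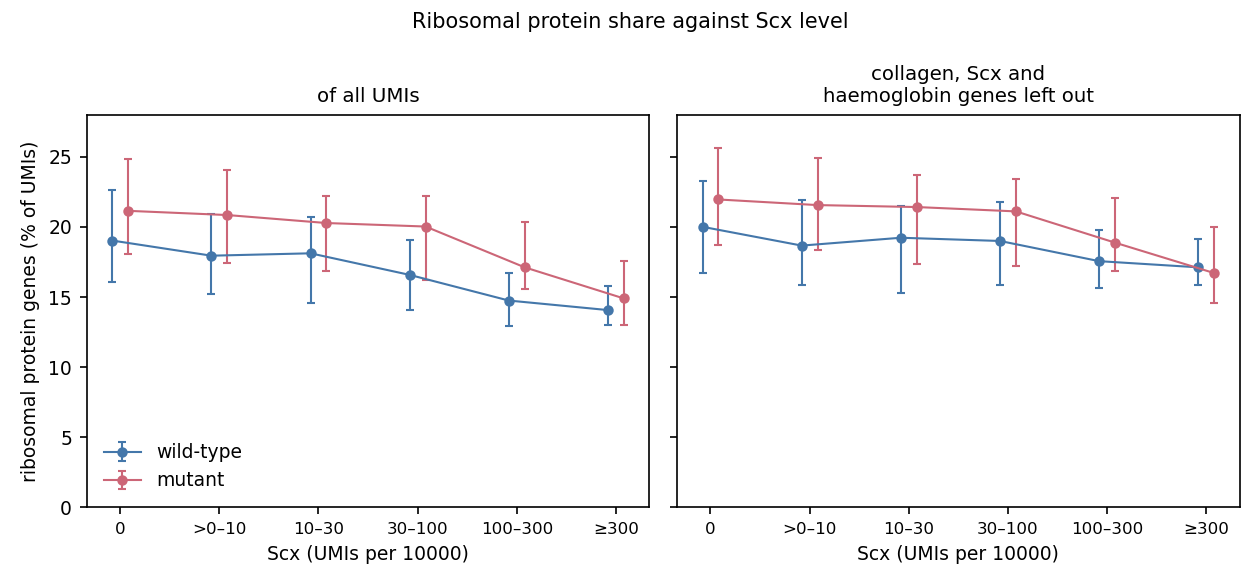
Median ribosomal protein share of UMIs (vertical axis, percent, bars from the 25th to the 75th percentile of cells) against the Scx level of the cell (UMIs per 10000) for wild-type (blue) and mutant (red) Scx-high cells and Scx-low fibroblasts. Of all UMIs (left), the medians run from 19.0% to 14.1% in the wild-type and from 21.2% to 14.9% in the mutant library, and without collagen, Scx and haemoglobin genes (right) from 20.01% to 17.1% and from 22.0% to 16.7%.

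Members spanned a wide range of levels. Because each mRNA is tagged once at its 3′ end, CPM does not scale with transcript length. Reads shared between near-identical copies can be dropped, so the order of levels between members is approximate. In wild-type Scx-low fibroblasts CPM ran from 20.8 for Rpl6l to 7141 for Rpl41, with a median member at 2133. Rpl41, a very short peptide of the large subunit, took 5.07% of the module's UMIs over the whole wild-type library and 3.54% over the mutant library. It had 9080 CPM in wild-type and 7206 CPM in mutant Scx-high cells, and 7141 and 7356 CPM in Scx-low fibroblasts. Rpl32, of the large subunit, had the highest level of the mutant immune cells, 6070 CPM, against 5447 CPM in wild-type immune cells.

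Rps19, Rpl32 and Rps14 were other abundant members. Rps19, a small subunit protein mutated in Diamond-Blackfan anaemia, had 4411 CPM in wild-type and 6913 CPM in mutant Scx-low fibroblasts, a ratio of 1.57 (1.53 to 1.60), and 1.61 (1.55 to 1.67) in Scx-high cells. In immune cells its ratio was 1.16 (1.09 to 1.24). For Rpl32 the ratio was 1.58 in Scx-high cells and 1.48 in Scx-low fibroblasts. Rps14, a small subunit protein, had 4623 and 5924 CPM in Scx-low fibroblasts, a ratio of 1.28 (1.25 to 1.31), and 4472 and 4453 CPM in immune cells.

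The proteins of the large subunit's stalk, which recruits the elongation factors, did not differ alike. Rplp0, its base, had 4827 CPM in wild-type and 6975 CPM in mutant Scx-low fibroblasts, a ratio of 1.44 (1.42 to 1.48). For Rplp1 the levels were 3396 and 3895 CPM, a ratio of 1.15 (1.12 to 1.18), and for Rplp2 they were 2226 and 2452 CPM, a ratio of 1.10 (1.07 to 1.14). Rpl5 and Rpl11, which enter the ribosome as a small particle and bind Mdm2 when free, had ratios of 1.067 (1.004 to 1.134) and 1.16 (1.13 to 1.19) in Scx-low fibroblasts and 0.905 (0.753 to 1.09) and 0.968 (0.890 to 1.05) in immune cells.

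The subunits were also summed apart. Summed over small subunit genes the ratio was 1.23 (1.22 to 1.24) in Scx-high cells and 1.24 (1.23 to 1.24) in Scx-low fibroblasts, and over large subunit genes 1.14 in both classes (1.13 to 1.15 and 1.13 to 1.14). By gene, the median log2 ratio of small and large subunit members was 0.24 and 0.19 in Scx-high cells and 0.24 and 0.15 in Scx-low fibroblasts, where the medians of all genes were 0.26 and -0.02. In immune cells the medians were -0.01 and -0.13.

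Few members passed a 1.5-fold difference. In Scx-high cells 12 of the 80 members with at least 100 UMIs were 1.5-fold or more higher in the mutant library and 7 lower, against 24.6% and 10.7% of all genes tested. Centred on the median of all genes in the class, which was shifted by 0.26 on the log2 scale, 4 were higher and 10 lower, against 12.6% and 17.05% of all genes on that scale. In Scx-low fibroblasts 5 of 81 members were higher and 6 lower, against 7.8% and 10.1% of all genes. When centred, 8.64% of the members there were higher and 7.41% lower, against 8.34% and 9.32% of all genes. Cycling cells had 8 of 80 higher and 8 lower, against 11.8% and 7.38% of all genes, and 4 higher and 8 lower when centred, against 7.66% and 9.81%. In immune cells 2 of 79 were higher and 9 lower, against 8.4% and 9.56% of all genes. When centred, 2.53% of the members there were higher and 11.4% lower, against 8.11% and 10.1% of all genes. Before centring, each of these shares was below that of all genes, except the 11.4% of members lower in immune cells and the 10% lower in cycling cells, which were above it. All genes tested reach down to 100 UMIs, where counting error is larger than for most members, and the shares were not matched for level.

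As a group the members were shifted by different amounts in the 4 classes. The median log2 ratio over members was 0.24 in Scx-high cells, where that of all genes was 0.26, and 0.20 in Scx-low fibroblasts, where that of all genes was -0.02. It was 0.23 against 0.11 in cycling cells and -0.06 against 0.02 in immune cells. In Scx-low fibroblasts 55 of 81 members were above a log2 ratio of 0 and the quartiles lay at -0.04 and 0.36 for members and -0.27 and 0.21 for all genes. Members 1.5-fold or more from the members' own median numbered 13 in Scx-high cells, 11 in Scx-low fibroblasts, 11 in cycling cells and 12 in immune cells, against 29.7%, 23%, 18.4% and 18% of all genes tested as far from the same median. That distance is taken from the members' own centre, so nothing is read from the contrast.

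**Figure D3:**
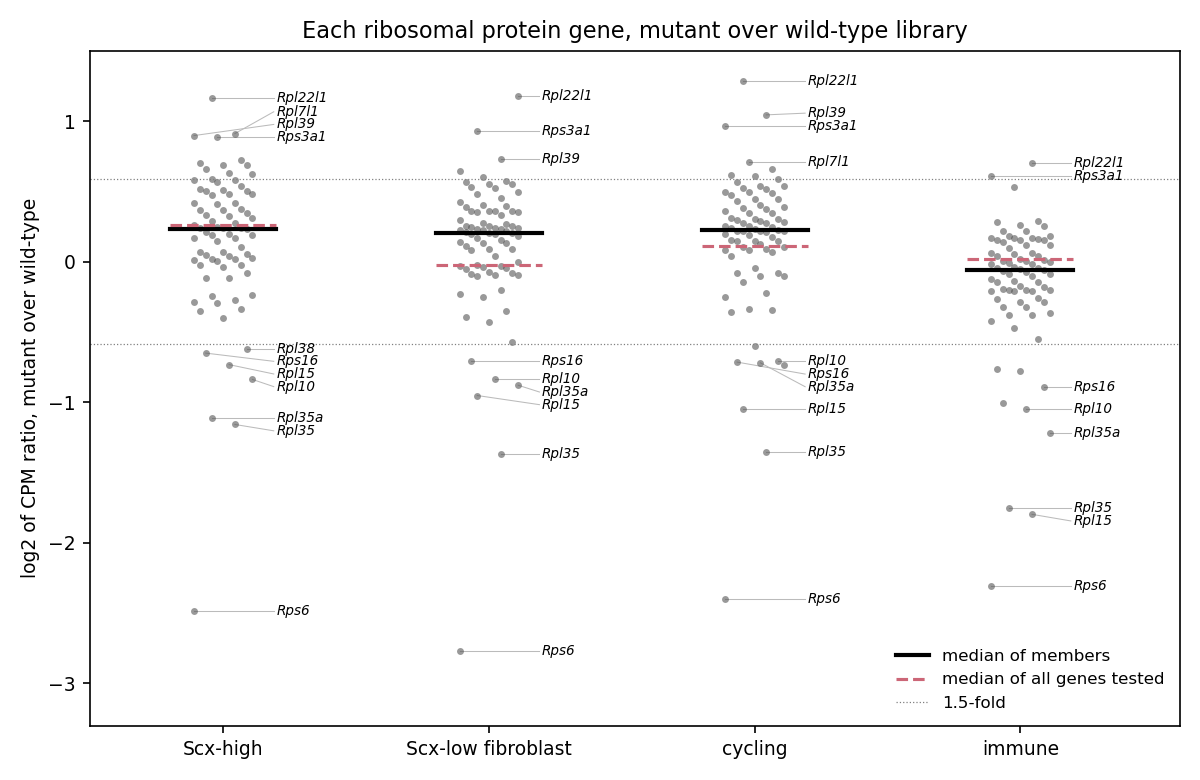
Log2 ratio of CPM, mutant over wild-type, of each ribosomal protein gene with at least 100 UMIs in a cell class (points), with the median of the members (black) and of all genes tested (dashed red). Dotted lines mark 1.5-fold. Rps6 lies lowest in all 4 classes, between -2.30 and -2.77, and Rpl22l1 highest, between 0.70 and 1.29.

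A small set of members was low in the mutant library in all 4 classes. Rps6, the small subunit protein phosphorylated by S6 kinase (GRCm38 chr4:86854660-86857412, minus strand), had 312 CPM in wild-type and 55.0 CPM in mutant Scx-high cells, a ratio of 0.177 (0.128 to 0.238). Its levels were 425 and 62.3 CPM in Scx-low fibroblasts, 288 and 54.0 CPM in cycling cells and 359 and 71.5 CPM in immune cells. These are low levels for a member in either library, and the wild-type value was higher in each class.

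Rpl35 (chr2:39001580-39005624, minus strand), a large subunit protein at the exit of the peptide tunnel, had 644 CPM in wild-type and 250 CPM in mutant Scx-low fibroblasts, a ratio of 0.388 (0.360 to 0.417). In immune cells it had 629 and 185 CPM, a ratio of 0.295 (0.224 to 0.383). Rpl35a (chr16:33056453-33060189, plus strand), also of the large subunit, had 564 and 307 CPM in Scx-low fibroblasts, a ratio of 0.544 (0.506 to 0.584), and 0.428 (0.344 to 0.529) in immune cells. The mutant library was the lower one for both genes in each class.

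Rpl10 (chrX:74270812-74273135, plus strand), a late-joining large subunit protein, had 2438 and 1365 CPM in Scx-low fibroblasts, a ratio of 0.560 (0.541 to 0.579). Rpl15 (chr14:18267823-18271391, minus strand) had 194 and 100 CPM there, a ratio of 0.517 (0.457 to 0.585), and in immune cells a ratio of 0.281 (0.156 to 0.478). Rps16 (chr7:28350652-28353155, plus strand), of the small subunit, had 1523 and 935 CPM in Scx-low fibroblasts, and its log2 ratios in the 4 classes lay between -0.65 and -0.89. Together with Rps6, Rpl35 and Rpl35a these are the 6 members, of 79 measured in all 4 classes, that were 1.5-fold or more lower in each. Among all 1078 genes measured in all 4 classes, 21 were lower in each. Rpl27a, of the large subunit, passed that only in cycling cells (ratio 0.599, 0.458 to 0.779) and immune cells (ratio 0.580, 0.422 to 0.790).

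Of the 79 members measured in all 4 classes, only Rpl22l1 and Rps3a1 were 1.5-fold or more higher in each, against 7 of all 1078 genes measured there. Rpl22l1 (chr3:28805436-28807424, plus strand), the paralog of Rpl22, had 188 CPM in wild-type and 426 CPM in mutant Scx-low fibroblasts, a ratio of 2.27 (2.05 to 2.51). Its ratio was 2.24 (1.95 to 2.56) in Scx-high cells, 2.45 (1.96 to 3.07) in cycling cells and 1.63 (1.198 to 2.21) in immune cells. Rpl22 itself, whose protein binds Rpl22l1 mRNA, had 924 and 1068 CPM in Scx-low fibroblasts, a ratio of 1.16 (1.10 to 1.21). Rpl22l1 was thus below Rpl22 in both libraries, and the distance between them was smaller in the mutant library.

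Rps3a1 (chr3:86137940-86142702, minus strand), of the small subunit, had 1543 and 2942 CPM in Scx-low fibroblasts, a ratio of 1.91 (1.84 to 1.97), and 1248 and 1903 CPM in immune cells, a ratio of 1.53 (1.37 to 1.70). Rpl39 (chrX:37082520-37085402, minus strand), a small protein of the peptide tunnel, had 747 and 1239 CPM in Scx-low fibroblasts, a ratio of 1.66 (1.58 to 1.75), and 1.44 (1.24 to 1.68) in immune cells. Without the 8 members that moved beyond 1.5-fold in the same direction in all 4 classes, a set chosen after their values were seen, the module ratio was 1.19 in Scx-high cells and in Scx-low fibroblasts, 1.196 in cycling cells and 0.973 in immune cells.

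**Figure D4:**
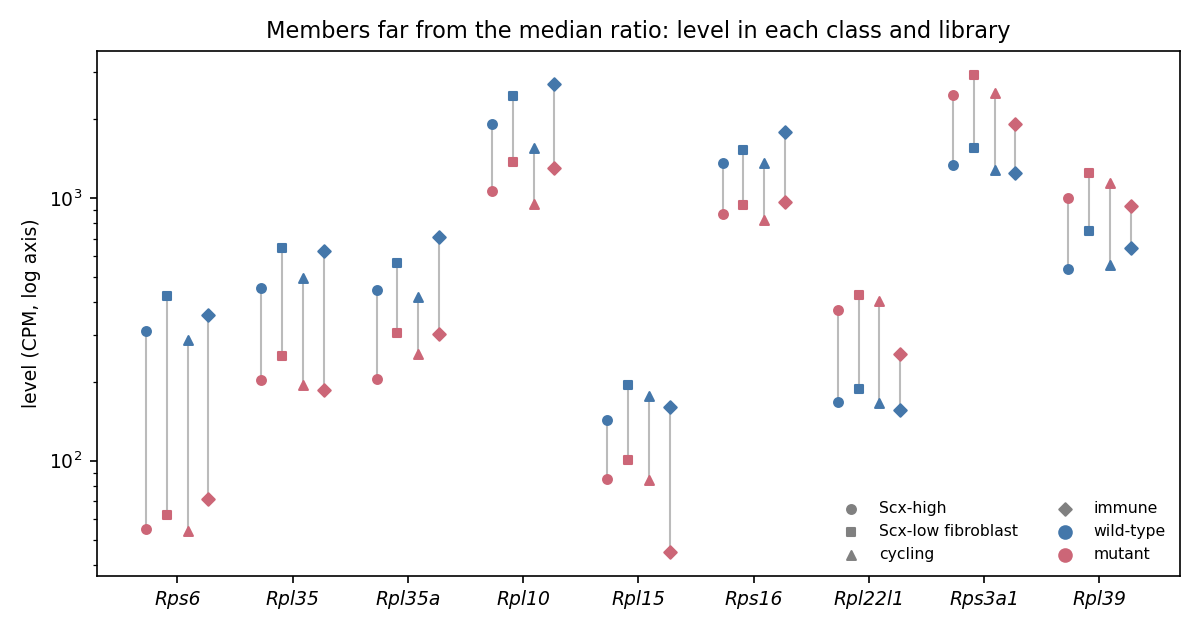
Level (CPM, log axis) of 9 ribosomal protein genes in the wild-type (blue) and mutant (red) library, with 1 symbol shape per cell class and a line joining the libraries. For Rps6, Rpl35, Rpl35a, Rpl10, Rpl15 and Rps16 the mutant value lies below the wild-type value in all 4 classes, and for Rpl22l1, Rps3a1 and Rpl39 above it.

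The other paralog pairs varied by class. Rps27l, a p53-inducible relative of Rps27, was higher in mutant Scx-high cells (470 and 587 CPM, ratio 1.25, 1.13 to 1.38) and lower in mutant Scx-low fibroblasts (531 and 452 CPM, ratio 0.852, 0.797 to 0.911). Rps27 was higher in both, with ratios of 1.43 and 1.41. Rpl7l1 had 56.8 and 106 CPM in Scx-high cells, a ratio of 1.87 (1.45 to 2.41), and 80.8 and 90.1 CPM in Scx-low fibroblasts, a ratio of 1.11 (0.945 to 1.32). For Rpl7 the ratios were 1.10 and 1.10. Rpl36al, which is outside the module by its symbol, had 478 CPM in the wild-type and 244 CPM in the mutant library over all cells. Its ratio there was 0.51 (0.484 to 0.538), where that of Rpl36a was 1.60 (1.57 to 1.64). The 4 members on chromosome X did not share a direction, with Scx-low fibroblast ratios of 1.21 for Rps4x, 1.28 for Rpl36a, 1.66 for Rpl39 and 0.560 for Rpl10.

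Many members share 3′ sequence with other genes of the annotation. In the GENCODE M21 annotation on GRCm38, 1 principal transcript was taken for each of 80 members, and the last 300 bases were searched for 50-base windows also present in a transcript of another gene. In 42 members over 50% of the windows were shared, among them Rps6 (83.3%), Rpl35 (96.0%), Rpl10 (100%), Rps3a1 (76.1%), Rpl22l1 (63.4%) and Rpl35a (53.0%). In 21 of the 42, Rps6, Rps3a1, Rpl22l1 and Rpl35a among them, no gene holding the shared windows was in the counted table. The score does not show which reads could be assigned, because the end of the transcript taken need not be where the counted reads lie. For Rps15a, Rps20 and Rpl15, with no shared window, that transcript was 5179, 3706 and 1922 bases long. Rps27 and Rpl9, with 100% shared, still had 65829 and 38178 UMIs over both libraries. The median log2 ratio in Scx-low fibroblasts was 0.20 in those 42 members, 0.22 in the 16 with up to 50% shared and 0.22 in the 22 with none. Extremes differed more, from -2.77 to 1.18 in the first group and from -0.95 to 0.55 in the last, but the groups are of unlike size. Rpl15, with no shared window, was the lowest of that last group. Over 80 members, percent of windows shared and signed distance from the members' median had a Spearman rank correlation of -0.08 in Scx-low fibroblasts. The correlation was -0.14 in Scx-high, -0.13 in cycling and -0.11 in immune cells. A signed correlation does not register differences that go both ways. Among other genes in Scx-low fibroblasts, 32 of 121 with over 50% shared were 1.5-fold or more lower and 10 higher. Their median log2 ratio was -0.17. With up to 50% shared, 36 of 308 were lower and 19 higher, with a median of -0.05. With none shared, 619 of 6271 were lower and 479 higher, with a median of -0.02. The part of sharing in the differences was not tested.

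Some copies outside the module differed far more than their parents, or in the opposite direction. Rpl9-ps6, which held every window of Rpl9, had 10.2 CPM in wild-type and 70.6 CPM in mutant Scx-low fibroblasts (26 and 376 UMIs). Its ratio was 6.92 (4.65 to 10.7), while Rpl9 in the same cells had 1.32 (1.28 to 1.36). Gm2000 and Gm10269, which hold 96.0% and 33.9% of the windows of Rpl35, had ratios of 3.27 (2.37 to 4.61) and 3.83 (2.63 to 5.75) in Scx-low fibroblasts, opposite to Rpl35. Adding Gm2000 to Rpl35 changed its whole-library ratio from 0.447 to 0.539. Rps18 had 2 such copies that went opposite ways, with Gm10260 at 166 and 39.2 CPM and Rps18-ps3 at 3.14 and 15.9 CPM in Scx-low fibroblasts. Rps27rt, which holds every window of Rps27, had 630 and 666 CPM there, a ratio of 1.06 (0.997 to 1.12).

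Some genes that are not ribosomal proteins also differed in 1 direction in every class. Of 1078 genes with at least 100 UMIs in each of the 4 classes, 79 were members. In all 4 classes 21 genes were 1.5-fold or more lower, of which 6 were members, and 7 were higher, of which 2 were members. Members were thus a larger part of both groups than of the genes measured. The higher genes outside the module were Cthrc1, Eln, Gm9843, Postn and Spp1, and the genes described next were picked from the lower ones. Gapdh, a glycolytic enzyme, had 181 CPM in wild-type and 37.7 CPM in mutant Scx-low fibroblasts and 345 and 55.6 CPM in immune cells. Ppia, a peptidyl-prolyl isomerase, had 238 and 27.2 CPM, and Myl6, a myosin light chain, had 348 and 57.2 CPM in Scx-low fibroblasts. In Gapdh 82.9% of the windows were shared with other genes, in Myl6 40.6% and in Ppia 16.3%. Whether read assignment between copies differed between the libraries was not tested.

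The wider translation machinery was mixed. Of 21 translation genes that were not members, 1 was 1.5-fold or more higher and 4 lower in Scx-low fibroblasts, with a median log2 ratio of 0.28, and 7 of 20 were higher and 2 lower in Scx-high cells, with a median of 0.43. Among all genes tested 7.8% were higher and 10.1% lower in Scx-low fibroblasts, with a median of -0.02, and 24.6% and 10.7% in Scx-high cells, with a median of 0.26. Fau, which encodes a ubiquitin-like protein fused to a ribosomal protein, had 2079 and 1725 CPM in Scx-low fibroblasts, a ratio of 0.830 (0.802 to 0.858). Eef1a1, the elongation factor that delivers tRNA, had a ratio of 1.12 (1.09 to 1.14), and Tpt1, a TOP mRNA, 0.526 (0.504 to 0.549). Tpt1 shared no window with another gene in the 1 transcript end searched.

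Ribosome biogenesis factors were less often measurable. In Scx-high cells 5 of 15 were 1.5-fold or more higher and 0 lower, with a median log2 ratio of 0.51, and in Scx-low fibroblasts 1 of 18 was higher and 0 lower, with a median of 0.07. For all genes these were again 24.6% and 10.7% with a median of 0.26, and 7.8% and 10.1% with a median of -0.02. Ncl, nucleolin, had 200 and 315 CPM in Scx-high cells, a ratio of 1.58 (1.37 to 1.82), and 1.22 (1.11 to 1.34) in Scx-low fibroblasts. Myc, a transcription factor that drives ribosome production, had 10.99 CPM in wild-type and 51.6 CPM in mutant Scx-low fibroblasts (28 and 275 UMIs), a ratio of 4.70 (3.18 to 7.20). In Scx-high cells it had 40 and 23 UMIs, a ratio of 3.18 (1.82 to 5.44), and in immune cells 9 and 9 UMIs. The part of Myc in the ribosomal protein shares was not tested. Mitochondrial ribosomal protein genes, which serve a separate ribosome, had a median log2 ratio of 0.36 in Scx-high cells, with 16 of 64 higher and 3 lower, and of 0.01 in Scx-low fibroblasts, with 0 of 70 higher and 1 lower, where 24.6% and 7.8% of all genes were higher and 10.7% and 10.1% lower in these classes.

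Few members differed 1.5-fold or more between Scx-high and Scx-low cells of the same library. Of 81 members, 0 were 1.5-fold or more higher in Scx-high cells of either library, 6 were lower in wild-type and 2 in mutant Scx-high cells. Among all genes tested, 9.55% were higher and 38.7% lower in the wild-type library, and 9.15% and 20.7% in the mutant library. The median log2 ratio of the members was -0.36 in wild-type cells and -0.26 in mutant cells, against -0.43 and -0.11 for all genes. The 6 lower in the wild-type library were Rpl36a, Rpl23a, Rpl37, Rps4x, Rps27 and Rpl24, chosen by name after their values were seen. These counts were not centred on the median of all genes, and the lowest member there had a log2 ratio of -0.79.

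Rpl38, a large subunit protein needed for selective translation in the embryo, was the member highest in wild-type Scx-high cells relative to Scx-low ones. It had 2764 CPM in wild-type Scx-high cells, 1907 CPM in wild-type Scx-low fibroblasts, 1799 CPM in mutant Scx-high cells and 1904 CPM in mutant Scx-low fibroblasts. The wild-type Scx-high value stood above the other 3, which were close to each other. Its Scx-high over Scx-low ratio was 1.45 (1.402 to 1.498) in the wild-type library and 0.945 (0.894 to 0.999) in the mutant library. Rps21 had 1464, 1134, 1351 and 1324 CPM in the same order, and Rpl41 had 9080, 7141, 7206 and 7356 CPM, so both were also highest in wild-type Scx-high cells. Rps27l went the other way, with Scx-high over Scx-low ratios of 0.886 (0.827 to 0.949) in the wild-type and 1.30 (1.17 to 1.43) in the mutant library. Rpl38, Rps21, Rpl41 and the Rps27l contrast were picked out after their values were seen, and Rpl38 shared 65.3% of its windows with other genes.

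**Figure D5:**
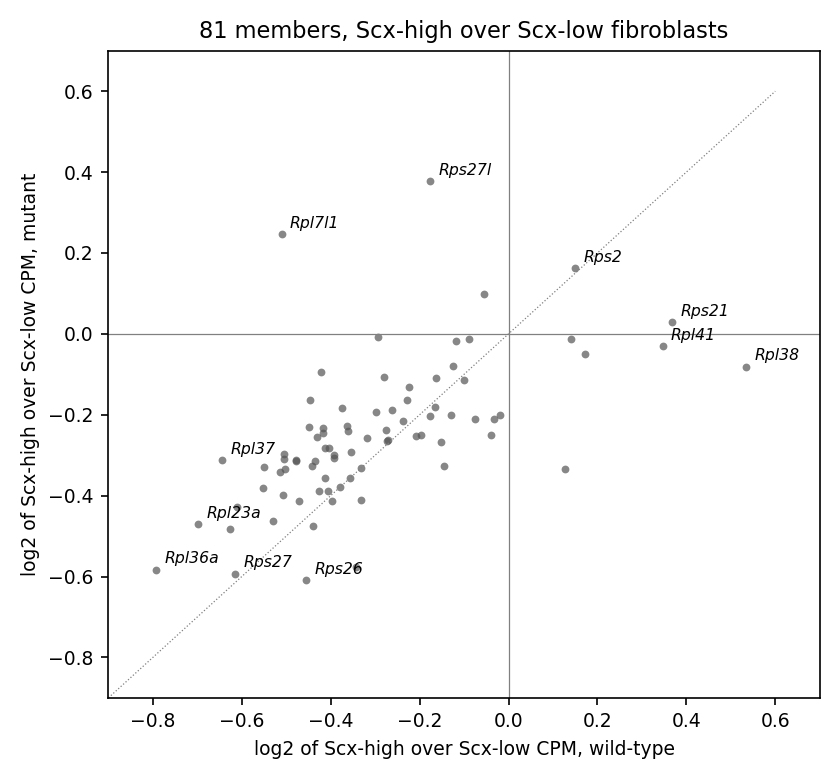
Log2 ratio of CPM, Scx-high cells over Scx-low fibroblasts, of the 81 members in the wild-type library (horizontal axis) and the mutant library (vertical axis), where the dotted line marks equal values. Most points lie below 0 on both axes. Rpl38, Rps21 and Rpl41 lie at 0.54, 0.37 and 0.35 in the wild-type and near 0 in the mutant library, and Rps27l and Rpl7l1 lie above 0 in the mutant library alone.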

How the data were processed

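The deposited counts are UMI counts per gene and cell on mm10, made by the authors with Cell Ranger (1.2.0 in the submitters' processing notes, a later version in the study's methods) and cell barcodes kept by total UMIs. They were not normalized. All barcodes were used, and the members and gene lists were chosen with earlier results of these data known.

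Here UMIs were summed by library and cell class and scaled to CPM. Ratios between libraries are mutant over wild-type, and those within a library are Scx-high over Scx-low. The intervals given are exact conditional 95% ones for ratios and exact binomial ones for shares, both for counting error only. Ratios of means per cell have no interval. Log2 ratios use a prior of 0.5 counts and genes with at least 100 UMIs in a class. With 1 library per group no test was run. Markers were fixed first and gate thresholds were set on their distributions: at least 30 per 10000 for immune, 20 for endothelial and neural, 40 for mural, muscle and fibroblast markers, and over 50% haemoglobin UMIs for red cells. Cells passing more than 1 gate (2 and 23) were left out. Scx lay between 20 and 45 per 10000, near its threshold, in 49 and 43 cells. The depth window of 2500 to 5000 UMIs and the mural and endothelial ratios were added after seeing the data. Doublets stayed in. Scrublet at an expected rate of 2% called 26 and 8 cells, and 0.309% in the mutant library is too few to show that the caller worked.

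Genes named were the 5 most abundant members, the 5 highest and 5 lowest in each class after the members' median was subtracted, the stalk and Rpl5 and Rpl11 genes, paralog pairs, X-linked members and listed pseudogenes and translation genes. Others were named after their values were seen. 1 gene of the named list is not reported here. The ratio script was tested on simulated data. Gene positions are from GENCODE M21. Python 3.11.15, NumPy 2.4.6, SciPy 1.17.1, pandas 2.3.3, scanpy 1.11.5 and matplotlib 3.10.9 were used.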

Additional observations from a re-analysis of the deposited data

Results flagged for a closer look

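The module ratio, mutant over wild-type, was 1.18 in Scx-low fibroblasts and 0.959 in immune cells, so the same contrast had opposite directions in these classes. The difference between the classes was not tested, because each class has 1 library per genotype, and the immune direction did not hold in cells of 2500 to 5000 UMIs (1.01).

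A group of transcripts outside the module had far more UMIs in the mutant library over all cells. Rpl9-ps6 was 9.13 times as high (7.04 to 12.0, 65 and 518 UMIs), Rps18-ps3 was 8.36 times as high (5.01 to 14.8, 17 and 124 UMIs), Gm10269 was 4.35 times as high (3.44 to 5.56) and Gm2000 was 4.15 times as high (3.38 to 5.13). Each shares sequence with a member that has many more UMIs, and the cause was not tested. The study itself lists Rps18-ps3 and Rpl9-ps6 as higher in its mutant cell cluster than in wild-type tenocytes, a contrast unlike that over all cells.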

How the results depend on the processing

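No paired analysis was possible because there is 1 library per genotype. No library was left out, since each group has 1. The cause of the changes was not tested.

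Ratios are listed for Scx-high, Scx-low fibroblast, cycling and immune cells and then for Scx-high over Scx-low inside the wild-type library and inside the mutant one. Without the 20 most abundant other genes they were 1.01, 1.16, 1.09, 0.938, 1.004 (reversed) and 0.876. Without collagen genes, Scx and haemoglobin genes those that moved were 1.07 in Scx-high and 1.13 in cycling cells and 0.955 and 0.869 within libraries. Centred on the median of all genes they were 0.983, 1.201, 1.10, 0.945, 1.12 and 0.892, with the first and the fifth reversed. As a mean per cell they were 1.195, 1.16, 1.16, 0.924 and, within the wild-type library, 0.804. An Scx threshold of 10 gave 1.196, 1.18, 0.841 and 0.849 for both Scx classes and both within-library ratios, and one of 100 gave 1.13, 1.19 and, within the mutant library, 0.789. With no fibroblast marker needed, Scx-low fibroblasts had 1.19 and the wild-type within-library ratio was 0.835. Restricting cells to 2500 to 5000 UMIs, a setting chosen after seeing the data, gave 1.23, 1.15, 1.204, 1.01 (reversed), 0.816 and 0.870.

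Counts of members 1.5-fold or more higher became 4 in Scx-high and 4 in cycling cells when centred, 1 in immune cells as a mean per cell, and 19 in Scx-high cells of 2500 to 5000 UMIs, where cycling cells had 4 lower and 7 away from the members' median. At a fold of 2, 4, 5, 4 and 4 members were away from the median, 1, 1, 2 and 0 were higher, and 3, 2 and 3 were lower in the first 3 classes. Shares of all genes were not computed at that fold, as a mean per cell or in the depth window. Nothing is therefore read from the member counts under those settings. Of 441 alternative values for the 45 gene and class values of named members past 1.5-fold, 441 kept their direction and 17 came under 1.5-fold. The 45 were chosen for being past 1.5-fold and the alternatives reuse the same libraries, so a reversal was unlikely from the outset. Removing called doublets or shallow cells, a cycling threshold of 6 UMIs, and a minimum of 1000 UMIs per member moved no module ratio out of its interval. Members with few UMIs, such as Rpl6l, Rpl7l1 and Rpl15, have the widest intervals.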
